A study of Mus musculus with 8 samples.

Results

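The genes described here are 9 genes of the MHC class I presentation pathway: B2m, H2-K1, H2-D1, H2-T23, Tap1, Tap2, Tapbp, Nlrc5 and Erap1. They were chosen by name, and each was found as 1 row among the 38392 genes of the deposited expression table. The table held bulk RNA-seq of eosinophils, granulocytes that are made in the bone marrow and settle in the intestinal wall. Eosinophils had been sorted from the bone marrow (4 libraries) and the small intestine (4 libraries) of female wildtype C57/BL6 mice that had received no treatment, to see how the cells adapt to the gut. Bone marrow cells were sorted as CD11b+Ly6G-Ly6C-SiglecF+SSChi without enrichment, and intestinal cells as CD11b+MHC-II-SiglecF+SSChi after removal of the epithelium, warm enzymatic digestion and enrichment on anti-CD11b beads. Tissue, gate and handling changed together and cannot be told apart. Libraries carry the names of their columns: the bone marrow ones are BM_1, BM_3, BM_4 and BM_5, and the intestinal ones SI_6, SI_7, SI_10 and SI_11.

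MHC class I molecules show fragments of a cell's own proteins to CD8 T cells and to receptors of natural killer cells. Proteasomes cut proteins into peptides, the transporter TAP carries the peptides into the endoplasmic reticulum, aminopeptidases trim them, and a loading complex fits them into a heavy chain that is held by the light chain beta-2 microglobulin. Nearly all nucleated cells make class I molecules, and inflammatory signals, above all interferon gamma, raise the genes of the pathway in many cell types.

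Depth ranged from 11508002 to 21289164 reads in genes per library. A normalized read count below is the number of reads recovered from the deposited value, divided by the size factor of the library. The eosinophil genes Siglecf (489 to 642 normalized reads in bone marrow, 2646 to 3820 in the small intestine) and Ccr3 (45.9 to 102 and 13285 to 19653) were detected in all 8 libraries. Of 6 eosinophil genes, 3 were higher in the small intestine (Siglecf, Ccr3 and the interleukin-5 receptor gene Il5ra) and 3 lower: the granule protein genes Epx (303 to 398 normalized reads in bone marrow, 12.5 to 29.5 in the small intestine), Prg2 (1417 to 2337 and 116 to 206) and Prg3 (35.2 to 64.1 and 1.39 to 9.48). In the bone marrow libraries, however, neutrophil transcripts were abundant. Mpo, the peroxidase of neutrophil granules, had between 127019 and 174314 normalized reads there, far above Epx, the eosinophil peroxidase. All 9 genes of a neutrophil precursor list were lower in the small intestine, and together they made up 2.68% to 3.09% of bone marrow reads against 0.00313% to 0.00349% of intestinal reads. All 4 bone marrow libraries showed this, so none of the results below could be given without it. All 7 epithelial genes were higher in the small intestine, at 0.0177% to 0.112% of reads, against at most 0.000718% in bone marrow. Of 12 macrophage or dendritic cell genes, 11 were higher in the small intestine, at 0.0224% to 0.0915% of reads against 0.00621% to 0.00685%. Both lists were highest in SI_6. Of the other lists, 3 of 3 endothelial and 4 of 4 fibroblast genes were higher in the small intestine, 4 of 4 erythroid genes lower, 2 of 5 T cell genes higher, and 1 of 4 B or plasma cell genes higher and 1 lower. In bulk RNA, fewer cells of a type and less RNA per cell cannot be told apart, and the part of these other cells in the results below was not tested. Values without SI_6 are given for some results, but the other intestinal libraries still held more epithelial and macrophage or dendritic cell reads than bone marrow did.

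B2m, on chromosome 2 (122147686 to 122153083, plus strand, GRCm38), encodes the light chain that nearly all class I heavy chains need to reach the surface. In bone marrow, B2m had 20888 normalized reads in BM_1, 24164 in BM_3, 18228 in BM_4 and 17458 in BM_5. In the small intestine it had 24052 in SI_6, 22419 in SI_7, 25641 in SI_10 and 31469 in SI_11. The groups overlapped, since BM_3 lay above SI_6 and SI_7. The difference (intestinal minus bone marrow mean, on the variance-stabilized log2 scale of the deposited values) was 0.36 ± 0.20 (SE, n = 4 libraries per tissue) and missed the threshold of 0.05 (limma adjusted p = 0.214). Its 95% confidence interval ran from -0.11 to 0.82.

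The classical heavy chains H2-K1 and H2-D1, which present peptides to CD8 T cells, were higher in the small intestine by a wide margin. H2-K1 (chromosome 17, 33996017 to 34000347, minus strand) had 4767, 5730, 4942 and 3788 normalized reads in BM_1, BM_3, BM_4 and BM_5, and 13637, 15725, 17379 and 19534 in SI_6, SI_7, SI_10 and SI_11. No intestinal library came near the range of bone marrow. The ratio of the means was 3.45, and the difference of 1.79 ± 0.21 (SE, n = 4 per tissue) passed the threshold (limma adjusted p = 0.000276). H2-D1 (chromosome 17, 35262730 to 35267499, plus strand) had 5078, 5524, 4889 and 4125 normalized reads in the bone marrow libraries, and 11687, 13547, 16709 and 19588 in the intestinal ones. The groups did not overlap here either, with a ratio of the means of 3.14 and a difference of 1.63 ± 0.22 (SE, n = 4 per tissue, limma adjusted p = 0.000624).

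H2-T23 encodes Qa-1, a nonclassical heavy chain that shows signal peptides of other class I molecules to CD94/NKG2 receptors. It had the largest difference of the 9 genes. H2-T23 (chromosome 17, 36029773 to 36032855, minus strand) had 272, 240, 233 and 224 normalized reads in the bone marrow libraries and 1190, 1262, 1397 and 1661 in the intestinal ones. Every intestinal library lay above every bone marrow library. The ratio of the means was 5.69 and the difference 2.48 ± 0.19 (SE, n = 4 per tissue, limma adjusted p = 2.43e-05). In all 3 heavy chains the lowest intestinal value was in SI_6, the library with the most epithelial and class II transcripts. Without SI_6 the differences were 1.88 for H2-K1, 1.75 for H2-D1 and 2.55 for H2-T23, each past the threshold. The part of other cells in these differences was not tested. Heavy chain genes are close copies of one another, and how the authors' counting treated reads that match several of them is not given in the sources used here, so the split of reads between them is uncertain.

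**Figure D1:**
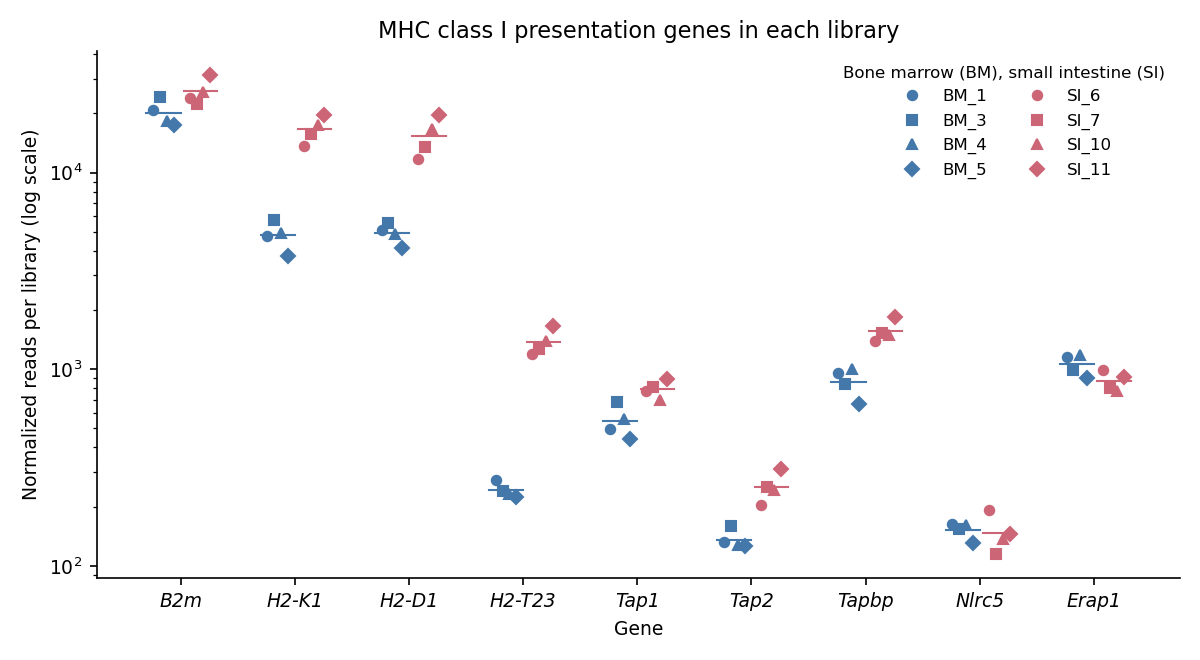
Normalized reads of each of the 9 genes (horizontal axis) in the 4 bone marrow libraries (blue) and the 4 small intestinal libraries (red), on a log vertical axis; each symbol is 1 library and the lines are tissue means. The intestinal symbols of H2-K1, H2-D1 and H2-T23 lie clear of the bone marrow symbols, whereas those of B2m, Nlrc5 and Erap1 overlap them.

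The promoters of these genes are shown because several of the heavy chains moved together. RefSeq windows of 300 bases (250 before and 50 after the RefSeq start, build GRCm38.p6) were found for 7 of the 9 genes, and none for Tap2 and Nlrc5. The RefSeq start is not always the gene start given in this text. For H2-D1, H2-T23, Tapbp and Erap1 it lies well inside the gene coordinates, so that bases before it are partly or wholly within the gene. Short motifs of the class I promoter were searched on both strands: the core of an interferon regulatory factor element (AANNGAAA), a kappaB consensus, a cyclic AMP response element half-site (TGACG) and a CCAAT box (CCAAT). They were chosen with the sequences in view. In the lines below, the bases upstream of the start of H2-K1 (chr17:34000348-34000507, minus strand) and B2m (chr2:122147527-122147685, plus strand) are printed 5′ to 3′ on the strand of the gene, with matches in capitals.

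H2-K1: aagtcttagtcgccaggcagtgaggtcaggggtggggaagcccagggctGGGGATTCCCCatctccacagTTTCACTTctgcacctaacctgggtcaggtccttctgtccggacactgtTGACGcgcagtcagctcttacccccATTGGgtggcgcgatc

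B2m: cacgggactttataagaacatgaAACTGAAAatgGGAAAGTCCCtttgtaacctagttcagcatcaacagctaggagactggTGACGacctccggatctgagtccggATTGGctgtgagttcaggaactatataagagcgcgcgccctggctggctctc

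In H2-K1 the capitals mark, from left to right, the kappaB consensus (2 overlapping matches), the interferon regulatory factor core, the half-site and the CCAAT box. The core (TTTCACTT) and the CCAAT box (ATTGG) lie there on the other strand. B2m held the same 4 motifs, with the interferon regulatory factor core first. H2-D1 also held all 4, so that 3 of the 7 windows did, against 0.11% of all 32851 windows. Since the motifs were chosen with these sequences in view, this contrast and those below were set in advance and test nothing. H2-K1 and H2-D1 are also close copies in the stretch compared below (28 of 29 bases), so they are not independent windows. Single motifs were common: the interferon regulatory factor core was found in 5 of the 7 windows and in 23.9% of all windows, the kappaB consensus in 3 and 8.46%, the half-site in 4 and 20.8%, and the CCAAT box in 6 and 37.4%. No match overlapped a match to another motif in these windows. B2m and H2-K1 held the same motifs, and of these genes H2-K1 passed the test between tissues and B2m did not. A match is a string of letters, not a bound site, and a link between motifs and levels was not tested.

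The stretch of 29 bases that ends with the interferon regulatory factor core is compared below between heavy chains. Heavy chains that were not called, such as H2-T24, were not compared, nor was H2-Q5, which was called higher. A stretch shared only among called genes cannot be tied to the calls. Those shown were all called higher in the small intestine. They are H2-K1 (chr17:34000430-34000458, minus strand), H2-D1 (chr17:35262923-35262951, plus strand) and H2-Q6 (chr17:35424677-35424705, plus strand). The others are H2-Q7 (chr17:35439021-35439049, plus strand), H2-Q4 (chr17:35379443-35379471, plus strand) and H2-T23 (chr17:36032818-36032846, minus strand). The stretches of H2-D1 and H2-T23 lie inside the gene coordinates given above for these genes. Matches to the kappaB consensus and to that core are in capitals.

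H2-K1: GGGGATTCCCCatctccacagTTTCACTT

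H2-D1: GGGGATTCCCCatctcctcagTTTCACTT

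H2-Q6: GGGGATTCCCCatctccccagTTTCACTT

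H2-Q7: tGGGGATTCCCatctccccagTTTCACTT

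H2-Q4: GGGGATTTCCCatctccccagTTTCACTT

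H2-T23: catgaaaagggatcctactgcTTTCTCTT

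Position by position and without gaps, H2-D1 and H2-Q6 were identical to H2-K1 at 28 of the 29 bases. H2-Q4 was identical at 27, H2-Q7 at 24 and H2-T23 at 12. The window of H2-T23 held no kappaB match and 2 matches to the interferon regulatory factor core. For H2-T23, only the stretch that ends with the core farther from the start was compared. The tissue difference was 2.48 for H2-T23, 1.79 for H2-K1 and 1.63 for H2-D1. Whether these sequences bear on the differences was not tested.

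Tap1 and Tap2 encode the subunits of the peptide transporter, and Tapbp encodes tapasin, which bridges the transporter and the empty heavy chain. All 3 lie near H2-K1 on chromosome 17 (Tap1 at 34187553 to 34197225, Tap2 at 34203527 to 34216321 and Tapbp at 33915899 to 33929292, all on the plus strand). Tap2 had 133, 159, 127 and 126 normalized reads in the bone marrow libraries and 204, 252, 242 and 312 in the intestinal ones, without overlap, and a difference of 0.86 ± 0.20 (SE, n = 4 per tissue, limma adjusted p = 0.00982). Tapbp had 962, 839, 999.97 and 663 normalized reads in the bone marrow libraries and 1395, 1531, 1495 and 1840 in the intestinal ones. Its groups did not overlap, and its difference was also 0.86 ± 0.21 (SE, n = 4 per tissue, limma adjusted p = 0.0117). Both signs turned when each library was centered on its median over all genes (-0.0363 for Tap2 and -0.0387 for Tapbp).

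Tap1 was the borderline member of this group. It had 496, 679, 562 and 443 normalized reads in the bone marrow libraries and 772, 808, 701 and 891 in the intestinal ones. The groups did not overlap, but BM_3 and SI_10 lay close together. The difference of 0.55 ± 0.20 (SE, n = 4 per tissue) missed the threshold (limma adjusted p = 0.0667), and its 95% confidence interval ran from 0.09 to 1.02. Tap1 passed the threshold without BM_3 (adjusted p = 0.0345) and without SI_10 (adjusted p = 0.0347). The exons of Tap1 share 212 bases with Psmb9 on the other strand, those of Tap2 share 165 and 533 bases with Gm20496 and Gm15821, and those of Tapbp share 149 bases with Zbtb22 and 904 with Gm19412. Whether the counting used strand is not given in the sources used here, so reads from these bases may belong to either gene.

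Nlrc5, the transactivator that acts on class I promoters, and Erap1, the aminopeptidase that trims peptides in the endoplasmic reticulum, were not higher in the small intestine. Nlrc5 (chromosome 8, 94434356 to 94527272, plus strand) had 162, 154, 162 and 130 normalized reads in the bone marrow libraries and 193, 115, 137 and 146 in the intestinal ones. SI_6 was above all bone marrow libraries and SI_7 below them. The difference was -0.06 ± 0.21 (SE, n = 4 per tissue, limma adjusted p = 0.848), with a 95% confidence interval from -0.55 to 0.43. Its sign rested on SI_7, since the difference was 0.05 without that library. Nlrc5 was also the least covered of the 9 genes, with 83 recovered reads in SI_7. Erap1 (chromosome 13, 74639568 to 74693201, plus strand) had 1157, 986, 1185 and 903 normalized reads in the bone marrow libraries and 991, 804, 777 and 914 in the intestinal ones. The groups overlapped, and the difference was -0.28 ± 0.19 (SE, n = 4 per tissue, limma adjusted p = 0.309, 95% confidence interval from -0.71 to 0.16). The exons of Erap1 share 834 bases with Cast, and those of Nlrc5 share 78 with 9330175E14Rik, both on the other strand.

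In all, 5 of the 9 genes were called higher in the small intestine and 0 lower. Of all 38392 genes, 22.0% were called higher and 12.9% lower. All 9 genes had a mean of at least 100 normalized reads, and of the 9424 such genes 31.9% were called higher and 35.3% lower. The libraries of the tissues did not overlap for 6 of the 9 genes, against 34.3% of all genes and 76.1% of the genes with at least 100 normalized reads, so that separation was not more common among the 9 genes than among other genes of that coverage. The median difference was 0.86 over the 9 genes, 0.37 over all genes and -0.11 over the better covered genes. Counts of calls depended on scaling: with each library centered on its median over all genes, which lowered the median difference of all genes by 0.90, H2-T23 was the only one of the 9 called higher (difference 1.58), and Erap1 was called lower (-1.18). Under that centering, 4285 of all 38392 genes were called higher and 10216 lower. The 9 genes together made up 0.246% ± 0.024 of bone marrow reads and 0.392% ± 0.048 of intestinal reads (SD, n = 4 each).

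**Figure D2:**
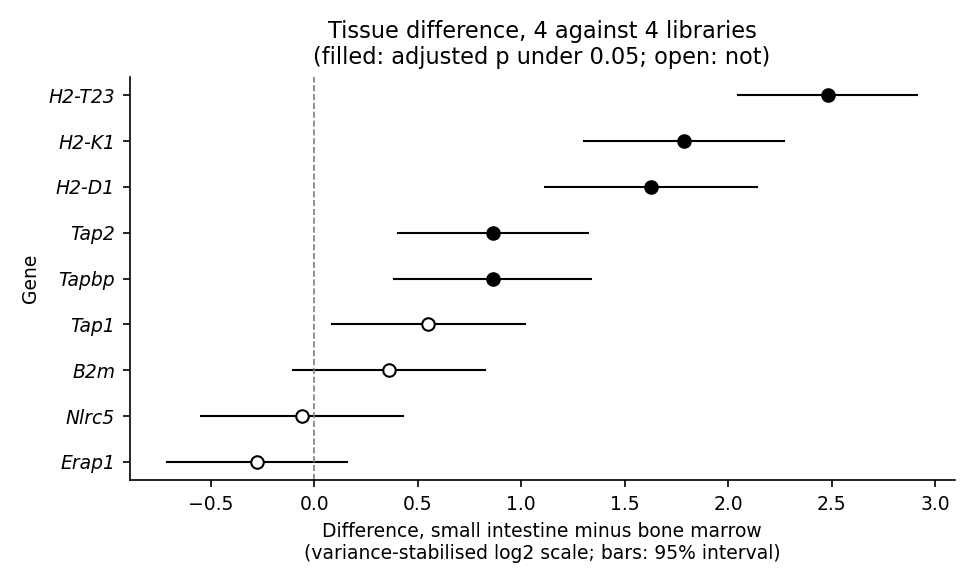
Difference between tissues for each of the 9 genes (vertical axis), as small intestine minus bone marrow on the variance-stabilized log2 scale (horizontal axis), with 95% confidence intervals as bars; filled points passed an adjusted p of 0.05. The values run from 2.48 for H2-T23 to -0.28 for Erap1, and the intervals of B2m, Nlrc5 and Erap1 include 0.

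Per kilobase of exon, the level of B2m was far above that of the other genes in both tissues, at 23470 ± 3526 normalized reads in bone marrow and 30111 ± 4584 in the small intestine (SD, n = 4 each). H2-D1 and H2-K1 followed, at 1901 ± 226 and 1636 ± 272 in bone marrow and at 5965 ± 1352 and 5639 ± 851 in the small intestine, and their ranges overlapped in both tissues. In bone marrow the order went on with Tapbp (239), Erap1 (145), Tap1 (99.5), H2-T23 (83.8), Tap2 (36) and Nlrc5 (17.9), where the ranges of Tap1 and H2-T23 overlapped. In the small intestine H2-T23 (477) came before Tapbp (431), Tap1 (145), Erap1 (120), Tap2 (66.8) and Nlrc5 (17.4). The ranges of H2-T23 and Tapbp overlapped there, as did those of Tap1 and Erap1. H2-T23 thus moved from the seventh to the fourth place, and Nlrc5 was last in both tissues.

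Ratios between genes of the same library do not depend on the size factor. A total of 13 ratios were compared with 2-sided exact permutation tests, which go through 70 ways to assign the libraries, and adjusted over the 13. The smallest p-value that this design allows is 0.0286. The ratio of H2-K1 to B2m was 0.228, 0.237, 0.271 and 0.217 in the bone marrow libraries and 0.567, 0.701, 0.678 and 0.621 in the intestinal ones. That of H2-D1 to B2m had a mean of 0.244 ± 0.017 in bone marrow and 0.591 ± 0.073 in the small intestine (SD, n = 4 each), and that of H2-T23 to B2m 0.0121 ± 0.0015 and 0.0533 ± 0.0029. Heavy chain transcripts were thus higher relative to the light chain, by 2.69-fold, 2.41-fold and 4.41-fold, with an exact p of 0.0286 and an adjusted p of 0.0464 each. Tap2 and Tapbp were also higher relative to B2m, by 1.44-fold and 1.42-fold (exact p = 0.0286, adjusted p = 0.0464 each). The ratio of Tap1 to B2m did not pass (exact p = 0.171), and neither did those of Nlrc5 (exact p = 0.114) and Erap1 (exact p = 0.0571). H2-K1 against H2-D1 gave an exact p of 0.114 and Tap1 against Tap2 an exact p of 0.0857. In all, 8 of the 13 ratios passed at an adjusted p of 0.0464. Each of the 8 had the smallest p that the design allows. Their adjusted p therefore depended on how many of the 13 reached it, and it cannot single out a ratio. The ratios to B2m also share its reads. None of the 13 passed after SI_7, SI_10 or SI_11 was left out, which brought the lowest adjusted p above the threshold.

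**Figure D3:**
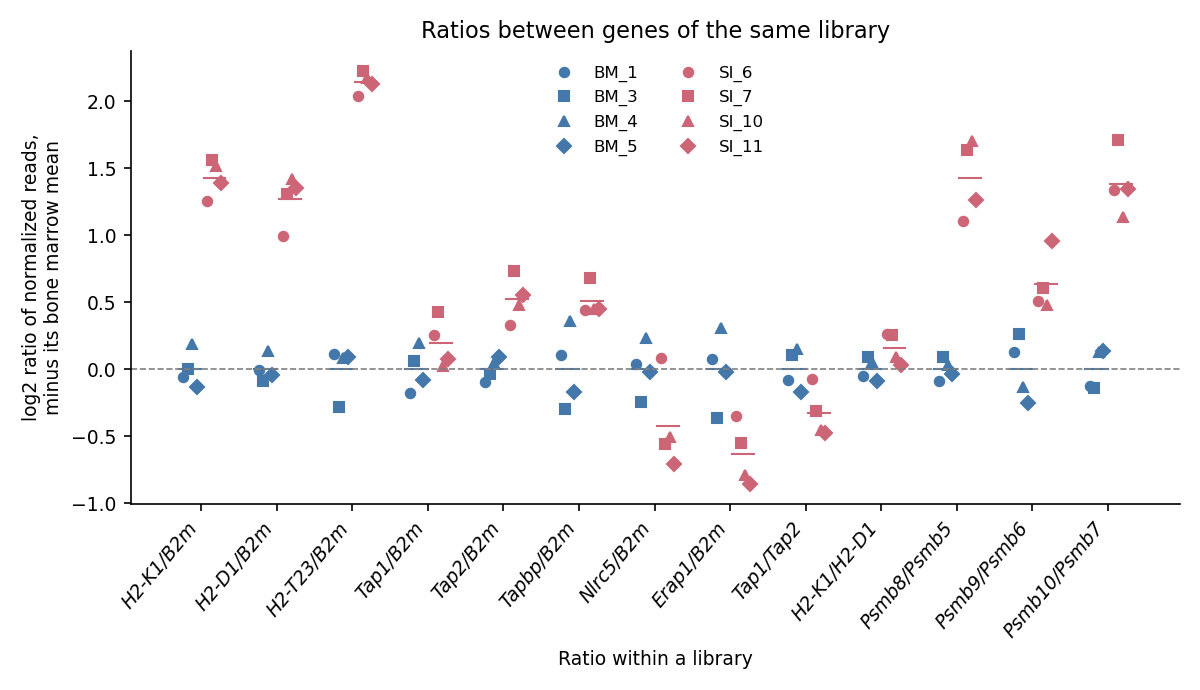
Log2 ratio of the normalized reads of gene pairs in each library (vertical axis), with the mean of the bone marrow libraries of each ratio (horizontal axis) set to 0; blue symbols are bone marrow libraries, red symbols small intestinal ones, and lines are tissue means. The 3 heavy chains stand 1.27 to 2.14 above the bone marrow mean relative to B2m, whereas the intestinal values of Tap1, Nlrc5 and Erap1 overlap those of bone marrow.

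BM_5 had the lowest bone marrow value for all 9, whereas it was lowest for 46.1% of the 9424 better covered genes. SI_11 had the highest intestinal value for 7 of the 9, against 43.6% of the better covered genes. SI_6 was lowest for 5 of the 9 (H2-K1, H2-D1, H2-T23, Tap2 and Tapbp) and highest for Nlrc5 and Erap1.

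The heavy chains outside the 9 genes were higher in the small intestine or not called. Of 32 such genes in the table, 15 were higher in the small intestine and 0 lower, against 22.0% and 12.9% of all genes. Of the 17 with a mean of at least 10 normalized reads over the 8 libraries, 14 were higher. H2-Q1, H2-Q2, H2-Q10, H2-T3, H2-T-ps and H2-M2 reached that mean only through the small intestine, with bone marrow means of 0.70 to 4.93. The cut itself thus favored higher genes, and the count of 14 is no support for a rise. H2-Q6 and H2-Q7, which encode nonclassical Qa-2 chains, and H2-Q5 were among them. H2-Q6 (chromosome 17, 35424850 to 35430055) had 119, 230, 136 and 108 normalized reads in the bone marrow libraries and 5534, 7214, 8533 and 8571 in the intestinal ones. The intestinal values stayed below those of H2-D1, and the difference was 5.66 ± 0.29 (SE, n = 4 per tissue, limma adjusted p = 3e-06). H2-Q7 had 208 to 425 normalized reads in bone marrow and 2797 to 4798 in the small intestine (difference 3.88, adjusted p = 2.49e-05), and H2-Q5 had 51.7 to 72.4 and 1837 to 3168 (difference 5.32, adjusted p = 1.61e-06).

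The sum of H2-Q5, H2-Q6 and H2-Q7, which is less touched by reads shared among them, went from 0.00358% ± 0.00112 to 0.0877% ± 0.0174 of all reads (SD, n = 4 each). That of all 32 heavy chain genes with H2 symbols, H2-K1, H2-D1 and H2-T23 included, went from 0.0849% ± 0.0096 to 0.315% ± 0.050. H2-Q4 (141 to 222 normalized reads in bone marrow, 897 to 1293 in the small intestine) was higher by 2.48, and H2-K2, a close copy of H2-K1, by 4.89 (7.66 to 30.7 and 412 to 756). H2-T24, with 427 to 624 and 523 to 699 normalized reads, overlapped between tissues and was not called (difference 0.27, adjusted p = 0.387).

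The proteasome subunits that interferon gamma induces did not move as a group. Only Psmb10 of the 5 genes of the immunoproteasome and its activator was called higher in the small intestine, with 394, 356, 462 and 374 normalized reads in the bone marrow libraries and 678, 695, 504 and 653 in the intestinal ones (difference 0.66 ± 0.20, SE, n = 4 per tissue, limma adjusted p = 0.0285). It lost the call without BM_1 (adjusted p = 0.0631) or BM_3 (adjusted p = 0.0591), and its sign turned with the centering on all genes (-0.24). The other catalytic subunits, Psmb8 (-0.29, adjusted p = 0.281) and Psmb9 (-0.20, adjusted p = 0.496), and the activator subunits Psme1 (-0.33, adjusted p = 0.218) and Psme2 (0.26, adjusted p = 0.405) were not called. Psme1 was called lower with a mean-variance trend (adjusted p = 0.0364), quantile normalization (0.00623), voom (0.0216) and the centering on all genes (0.0281), and Psmb8 with that centering (0.0346). Their constitutive counterparts fell instead. Psmb5 had 421, 445, 416 and 363 normalized reads in the bone marrow libraries and 175, 104, 89.7 and 149 in the intestinal ones (difference -1.68, adjusted p = 0.000902). Psmb6 (-0.83) and Psmb7 (-0.71) also fell, with adjusted p-values of 0.00565 and 0.0163. Within a library, the ratio of Psmb8 to Psmb5 therefore went from 1.40 ± 0.07 to 3.81 ± 0.75 (SD, n = 4 each), that of Psmb9 to Psmb6 from 1.61 ± 0.26 to 2.51 ± 0.40 and that of Psmb10 to Psmb7 from 0.515 ± 0.054 to 1.35 ± 0.23. Each had an exact p of 0.0286 and an adjusted p of 0.0464.

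Of 6 further peptidases that shorten or destroy class I peptides, 3 were higher in the small intestine and 2 lower. Npepps, a cytosolic aminopeptidase, was higher by 1.55 (2308 to 2779 normalized reads in bone marrow, 5539 to 8822 in the small intestine, adjusted p = 0.000532). Lnpep, which trims peptides in endosomes, was higher by 1.06 (adjusted p = 0.00131). Both lost the call with the centering on all genes (0.65, adjusted p = 0.281 for Npepps, and 0.16, adjusted p = 0.804 for Lnpep). Nrd1, a metalloendopeptidase, was higher by 0.63 (adjusted p = 0.0311). Nrd1 lost the call without BM_1 (adjusted p = 0.0647), BM_3 (0.0562) or BM_4 (0.0589), and its sign turned with the centering on all genes (-0.27) and with quantile normalization (-0.0360). Thop1, which degrades peptides in the cytosol, fell by 2.56 (97.3 to 132 normalized reads against 10.7 to 26.2, adjusted p = 0.000175), and Blmh fell by 1.26 (adjusted p = 0.000771). Tpp2 had a difference of 0.43 and was not called (adjusted p = 0.077), but it passed without BM_5 (adjusted p = 0.0218), SI_6 (0.0275), SI_7 (0.0408) or SI_10 (0.0140).

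Transcripts of calreticulin, calnexin and ERp57, general chaperones of the endoplasmic reticulum that also serve class I loading, were lower in the small intestine, unlike tapasin (Tapbp, above). Of the 6 genes of the chaperone list, 4 were lower in the small intestine and 0 higher. Calr, which encodes calreticulin, had 7292, 8138, 7465 and 7187 normalized reads in the bone marrow libraries and 1436, 875, 621 and 923 in the intestinal ones. This was a 7.80-fold lower mean, with a difference of -3.02 ± 0.26 (SE, n = 4 per tissue, limma adjusted p = 5.22e-05). Pdia3, the oxidoreductase ERp57 that binds tapasin, fell by 2.25 (adjusted p = 0.000227) and Canx, which encodes calnexin, by 1.82 (adjusted p = 0.000136). Uggt1, which marks misfolded glycoproteins for another round of folding, fell by 0.74 (adjusted p = 0.00791). Tapbpl, a relative of tapasin, had a difference of -0.31 (adjusted p = 0.237), and Hspa5, the general chaperone BiP, one of -0.41 (adjusted p = 0.103). SI_6, which had the most epithelial reads, had the highest intestinal values of Calr, Pdia3 and Canx. Without SI_6, Calr was lower by 3.23 and Hspa5 was called as well (-0.43, adjusted p = 0.0446), as it was without BM_5 (adjusted p = 0.0384) or SI_10 (0.0140).

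Of 13 transcription factors that act on class I promoters, 5 were higher in the small intestine and 3 lower. Irf1, a factor that interferon gamma induces, had 311, 277, 337 and 297 normalized reads in the bone marrow libraries and 1632, 1699, 1331 and 2123 in the intestinal ones (difference 2.44 ± 0.20, SE, n = 4 per tissue, limma adjusted p = 3.91e-05). Nfkb1, the p50 subunit that binds kappaB sites, had 1382 to 1758 and 6893 to 11645 normalized reads (difference 2.70, adjusted p = 4.39e-05). Irf2 was higher by 1.58 (adjusted p = 0.000286), but not called with the centering on all genes (0.68, adjusted p = 0.257). Of the X-box and Y-box factors that bind beside Nlrc5, Rfx5 was higher by 0.97 (adjusted p = 0.00813), and Rfxank, Nfyb, Nfyc and Atf1 were not called. The 3 lower genes were also of this kind: Rfxap fell by 1.40 (adjusted p = 0.00125), Creb1 by 0.84 (adjusted p = 0.00483) and Nfya by 0.61 (adjusted p = 0.0233, and 0.0565 without BM_4).

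Of 18 genes of the interferon gamma receptor, its signaling and its targets, 8 were higher in the small intestine and 2 lower. Cxcl10, a chemokine that attracts T cells, had 33.5 to 83.5 normalized reads in bone marrow and 1893 to 2557 in the small intestine (difference 5.30, adjusted p = 3.98e-06). Iigp1 was higher by 2.77 (adjusted p = 0.00748) and Gbp2 by 2.61 (adjusted p = 0.00019), both GTPases of cell-autonomous defense. Gbp3 and Irgm1, of the same GTPase families, fell by 1.57 (adjusted p = 0.00973) and 0.93 (adjusted p = 0.0185, and 0.0503 without BM_3). Iigp1 was sparse, with at most 12.3 normalized reads in bone marrow and 36.7 to 65.5 in the small intestine.

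Of 8 cross-presentation genes, which bring outside proteins onto class I molecules, 2 were higher and 4 lower. Cybb, the oxidase subunit that keeps phagosomes from acidifying, was higher by 0.78 (adjusted p = 0.0107), and Wdfy4 by 0.76 (adjusted p = 0.0126), and both signs turned with the centering on all genes (-0.12 and -0.14). Sec61b, a subunit of the translocon of the endoplasmic reticulum, fell by 2.45 (adjusted p = 5.21e-05), Sec61a1 by 1.07 (adjusted p = 0.00254) and Sec22b, a SNARE, by 0.71 (adjusted p = 0.0151).

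Of 8 receptors that read class I molecules, 5 were higher and 0 lower. Pirb, an inhibitory receptor for class I molecules on myeloid cells, had 136, 230, 127 and 203 normalized reads in the bone marrow libraries and 3362, 3933, 4580 and 5513 in the intestinal ones. Its difference was 4.63 ± 0.27 (SE, n = 4 per tissue, limma adjusted p = 6.18e-06). Klra2, of the Ly49 family, was higher by 4.72 (14.4 to 31.3 against 527 to 924 normalized reads, adjusted p = 6.29e-06). Cd8a was called higher (difference 2.06, adjusted p = 0.0176) but stayed at or below 16.6 normalized reads in every library, and lost the call without BM_1 (adjusted p = 0.0534), BM_4 (0.0527), SI_7 (0.0645) or SI_10 (0.0735).

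Of 7 class II genes, 4 were higher in the small intestine although the intestinal gate had left out cells with MHC-II at the surface. Cd74, the invariant chain, had 164 to 260 normalized reads in bone marrow and 5904, 3980, 907 and 1774 in SI_6, SI_7, SI_10 and SI_11 (difference 3.64, adjusted p = 0.001). H2-Eb1 was higher by 3.80 (adjusted p = 0.00147), and H2-Aa by 3.38 (adjusted p = 0.0017). This order of the intestinal libraries was not that of H2-K1, H2-D1 and H2-T23, which were lowest in SI_6 and highest in SI_11. It was closer to that of some sparse heavy chains that were highest in SI_6, such as H2-T3 (250, 65.2, 21.9 and 43.9 normalized reads in SI_6, SI_7, SI_10 and SI_11) and H2-Q2 (170, 79.0, 15.3 and 29.6), named here after their values were seen. H2-Q1 and H2-M2 were also highest in SI_6. The order of 4 libraries does not tell which cells the reads of a gene came from, and this was not tested. Without SI_6 the 4 genes were still called higher, and 2 of the other 3 were called lower.

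**Figure D4:**
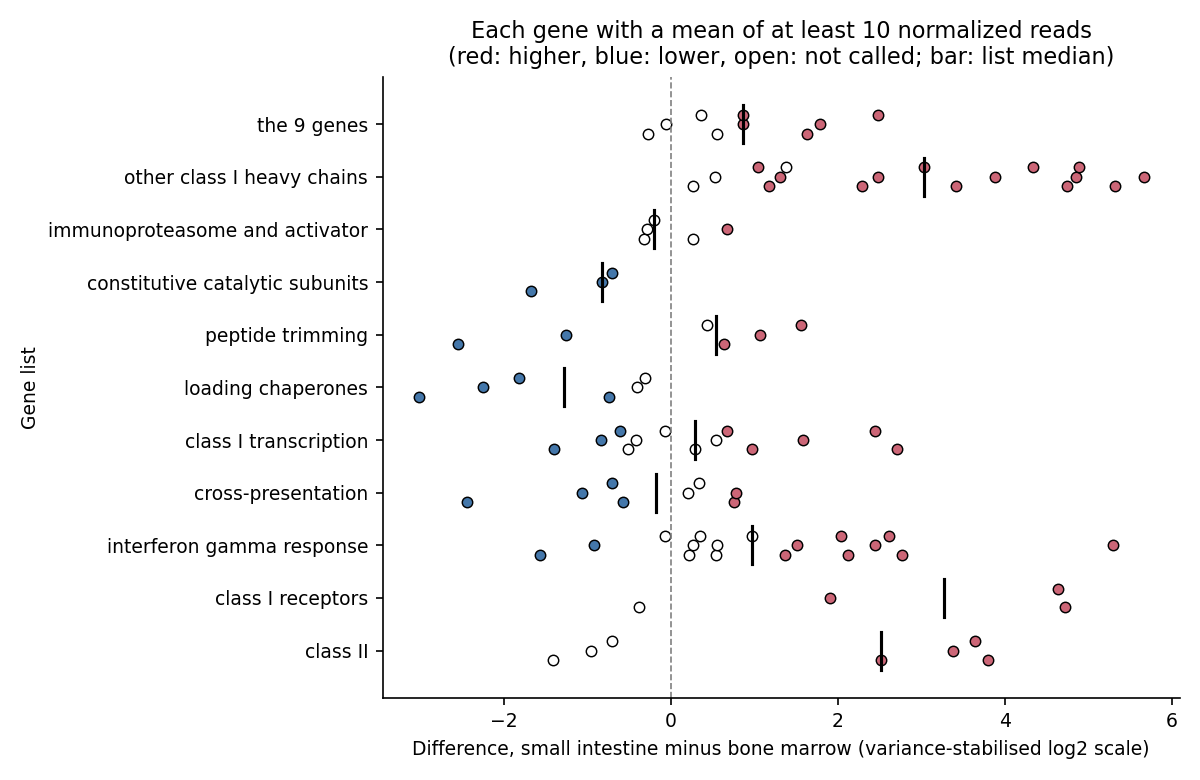
Difference between tissues (horizontal axis, small intestine minus bone marrow on the variance-stabilized log2 scale) of each gene with a mean of at least 10 normalized reads, by gene list (vertical axis); each point is 1 gene, colored when called higher (red) or lower (blue) and open when not called, and the bar is the median of the list. The median is 3.03 for the 17 other heavy chains plotted and -1.28 for the 6 loading chaperones. Some of the heavy chains passed the cut of 10 only through the small intestine, so the cut favors a higher median there.

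Over the 10 lists together, 42 of 104 genes were higher in the small intestine and 18 lower. Of all genes, 22.0% were higher and 12.9% lower, and of those with at least 100 normalized reads 31.9% and 35.3%. The counts of the single lists above stand beside the same shares. With each library centered on its median over all genes, 26 were higher and 33 lower. These lists were picked with earlier results of the data known, and their counts describe them without setting them apart from other genes.

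The genes whose level followed that of B2m most closely over the 8 libraries, among 16307 genes with a mean of at least 10 normalized reads, were Ubl5 (Pearson r = 0.984), Dctn3 (0.973) and Klhl25 (0.961). Those closest to Nlrc5 were Hyal2 (0.938), Gm3355 (0.933) and Acadm (0.923). None of these 6 genes differed between tissues past the threshold, but neither did B2m or Nlrc5, so the matching made this outcome likely. The values of the 6 genes share the libraries and size factors of the genes they were matched to.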

How the data were processed

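RNA was extracted from sorted eosinophils of mouse bone marrow and small intestine (4 libraries each), amplified to cDNA (NuGEN Ovation) and read from a single end on an Illumina HiSeq. According to the methods and processing notes of the study, the authors used GRCm38 with Ensembl 86, the nf-core/rnaseq pipeline, and DESeq2 in R 4.0.3. The aligner is not given in the sources used here, nor are strand setting and the handling of multi-mapping reads. The values deposited by the authors are variance-stabilized counts on a log2-like scale. The transformation was inverted from the lowest value, and 100% of the values came out as whole reads within 0.05 after scaling by a size factor per library. These recovered reads cover reads in genes only, and depth limits chiefly the genes with few reads.

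Column names matched a tissue but not single samples, so each column was 1 replicate of its tissue, and 0 columns were left without a group. According to the study, replicates are separate mice. No pair of libraries agreed within counting noise (chi-square per degree of freedom 10.2 to 66.8).

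Tissues were compared by fitting the deposited values of all 38392 genes with limma 3.58.1 (R 4.3.3), without covariates or a filter, and p-values were adjusted by Benjamini-Hochberg over all genes (threshold 0.05). The study used a count model, which the deposited unit does not allow as the main test, so voom on recovered reads was an alternative. All p-values are 2-sided. The test was tested on simulated reads. Ratios within a library were tested with exact permutation tests. Tables, permutation tests and plots were made in Python 3.11.15 (numpy 2.4.6; pandas 2.3.3; scipy 1.17.1; matplotlib 3.10.9). All gene identifiers were found in GENCODE M21 (38000 with the same symbol), which gave coordinates and exon lengths. Promoters were taken from RefSeq.

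The members, gene lists, motifs and tests were chosen with earlier results of these data known. Genes named were the 9 members, all genes of a list with 6 or fewer in the table, otherwise the 3 called genes with the largest rise and the 3 with the largest fall, the 5 other heavy chains with the highest mean, and the 3 genes most like B2m and Nlrc5. Markers of other cells were named as checks. Nrd1 is the listed gene Nrdc under its older symbol, Lilrb3 was taken as Pirb, and Lilrb4a was not analysed here. Alternatives were a mean-variance trend, other scalings, pseudocounts of 1 and 5, only genes above the median of mean values, and leaving out each library. Centering on the median of genes with at least 10 normalized reads and the background of genes with at least 100 were added after seeing the data.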

Additional observations from a re-analysis of the deposited data

Results flagged for a closer look

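In 5 of 140 groups of 4 libraries, 1 library stood apart by more than Dixon's 95% limit, as the share of the group's whole range that separated it from its nearest neighbor. Chance flags about 1 in 20 groups, so this number is not above what chance gives. In bone marrow, BM_3 was the highest library for H2-Q7 (share 0.8995), with 425 normalized reads against 208 to 224 in the others, and the lowest for the log2 ratio of H2-T23 to B2m (share 0.924), at 0.00993 against 0.0128 to 0.0130. In the small intestine, SI_10 was the lowest library for Hspa5 (share 0.9002) and SI_6 the lowest for Nfkb1 (share 0.860), with 6893 normalized reads against 10824 to 11645. SI_7 was the highest for the log2 ratio of Tapbp to B2m (share 0.952), at 0.0683 against 0.0580 to 0.0585. The cause of these values was not tested.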

How the results depend on the processing

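Across 16 alternative analyses of the 9 genes, 128 of 144 differences kept their direction and their side of the threshold. The largest change came from centering each library on its median over all genes, which left 1 member called higher and 1 lower, and 26 list genes higher and 33 lower. There H2-K1 (0.89, adjusted p = 0.126) and H2-D1 (0.73, adjusted p = 0.221) lost their calls, as did Npepps (0.65), Lnpep (0.16) and Irf2 (0.68), and the sign turned for B2m (-0.54), Tap1 (-0.35), Tap2 (-0.0363), Tapbp (-0.0387), Cybb (-0.12), H2-T24 (-0.63), Nrd1 (-0.27), Psmb10 (-0.24), Psme2 (-0.64), Tpp2 (-0.47) and Wdfy4 (-0.14). Of all calls, 63.2% were higher in the main analysis, 29.5% under this centering and 45.8% under quantile normalization, which turned B2m (-0.44), Cybb (-0.12) and Nrd1 (-0.0360). The cause of these changes was not tested. The median over all genes depends on how many genes had reads. That number was 19713 to 30886 in the bone marrow libraries and 26624 to 33346 in the intestinal ones. Centering on genes with at least 10 normalized reads shifted the median difference of all genes by -0.06 and left 5 members called higher. B2m was called higher only with a mean-variance trend (adjusted p = 0.0299), where Tap1 was called too (adjusted p = 0.00526). Tpp2 and Hspa5 were also called with that trend (adjusted p = 0.00235 and 0.00259) and with voom (0.0191 and 0.000537). Leaving out 1 library, Nlrc5 ranged from -0.19 to 0.0486 (without SI_7), and genes differing between tissues from 10982 to 14670 (13402 with all libraries). Members called higher ranged from 5 to 6, list genes called higher from 36 to 43 and lower from 16 to 22, and within-library ratios that passed from 0 to 9. No paired analysis was possible because the labels give the tissues no shared replicate numbers. Nlrc5 and Tap2, with the fewest reads, are the members whose values depth limits most.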
